A study of Mus musculus with 8 samples.

Results

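Fibroblast growth factor (FGF) genes were followed through the differentiation of mouse embryonic stem cells into cardiomyocytes. The genes were chosen by name among the protein-coding rows of the expression files: every numbered *Fgf* gene, the receptors *Fgfr1* to *Fgfr4*, the decoy receptor *Fgfrl1*, the Sprouty and Spred inhibitors, the phosphatases *Dusp4* and *Dusp6* and the Ets factors *Etv4* and *Etv5*. This gave 38 of 55487 genes, of which 21936 are protein-coding. They comprise 18 secreted ligands, 4 intracellular FGF homologous factors, 4 receptors, 1 decoy receptor and 11 feedback inhibitors and Ets factors. All libraries came from the J1 line of strain 129S4/SvJae. ESC libraries (day 0) were from untreated cells kept with LIF, a cytokine that holds them undifferentiated. Mesoderm (MES, day 4), cardiac progenitor (CP, day 6) and cardiomyocyte (CM, day 10) libraries were from embryoid bodies differentiated in serum medium. These were formed for 2 days in hanging drops and then plated in a serum medium with ascorbic acid. Each stage had 2 biological replicates, 8 libraries in all. In comparisons with ESC, stage, medium, loss of LIF, the form of culture and ascorbic acid cannot be told apart in this design. Among the later stages, stage and time in the medium cannot be told apart. In all of them 1 line of cells stands for every stage.

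FGFs are secreted proteins that bind receptor tyrosine kinases on neighbouring cells, together with heparan sulfate, and switch on the Ras-ERK cascade inside them. The cascade induces its own inhibitors, among them the Sprouty and Spred proteins and the ERK phosphatases of the Dusp family, and the Ets factors *Etv4* and *Etv5*, so these genes are widely used as readouts of FGF activity. In the mouse, *Fgf4* acts in the early embryo and pushes stem cells towards differentiation, *Fgf8* is needed for mesoderm cells to leave the primitive streak, and *Fgf8* and *Fgf10* mark the second heart field, a source of cardiac progenitors.

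The libraries held 18046063 to 19728777 counts each. The 38 genes took 0.205% and 0.212% of the counts in ESC, 0.158% and 0.161% at MES, 0.120% and 0.127% at CP, and 0.0886% and 0.116% at CM. The share was thus highest in ESC and fell below every earlier library in both CM libraries. The stage labels were checked with marker lists, each summed as TPM, which are counts corrected for gene length and for library size. Pluripotency genes summed to 7311 and 7270 TPM in ESC and to 82.6 to 325 TPM later, and primitive streak genes to 561 and 551 TPM in MES. Cardiac genes summed to 1048 and 1446 TPM in CP and to 561 and 1147 TPM in CM. Neither CM library exceeded both CP libraries, and the median log2 fold change of the 10 cardiac genes was −0.50 in CM against CP. This list therefore does not set CM apart from CP as the later cardiac stage. The later cultures also held markers of other cells. Blood genes summed to 4338 and 4313 TPM in CP. Smooth muscle and fibroblast genes summed to 7729 and 9063 TPM in CP and to 12647 and 8685 TPM in CM. Endoderm genes reached 589 and 934 TPM in CM. The levels below are therefore those of mixed cultures, in which a change in the number of cells of a type and a change in RNA per cell cannot be told apart. The CM replicates differed from each other far more (mean chi-square per gene 33.2) than those of the other stages (3.71 to 6.4).

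Among the consecutive steps, these genes changed most often between day 0 and day 4, as did all genes tested. By edgeR's quasi-likelihood F-test, genes with an adjusted p below 0.05 that also differed more than 2-fold were called. From ESC to MES, 21 of the 34 members tested were called, 10 higher and 11 lower (61.8% of members). Over all 20071 genes tested, 35.4% were called. From MES to CP, 10 members were called, 3 higher and 7 lower (29.4%, against 15.4% of all genes). Leaving out MES replicate 1 took this count to 6. From CP to CM, 9 were called, 3 higher and 6 lower (26.5%, against 10.8% of all genes). Between the 2 ends of the path, CM against ESC, 18 were called, 10 higher and 8 lower (52.9%), and here the share was close to the 51.6% of all genes, of which 29.8% were higher and 21.8% lower. In the later steps the members leaned towards lower calls, while more genes of the whole table were called higher (10.8% and 8.17%) than lower (4.65% and 2.65%). The median log2 fold change of the tested members in the 4 comparisons was 0.08, −0.35, −0.27 and 0.04, beside 0.00, 0.00, −0.0037 and 0.11 for all genes.

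**Figure D1:**
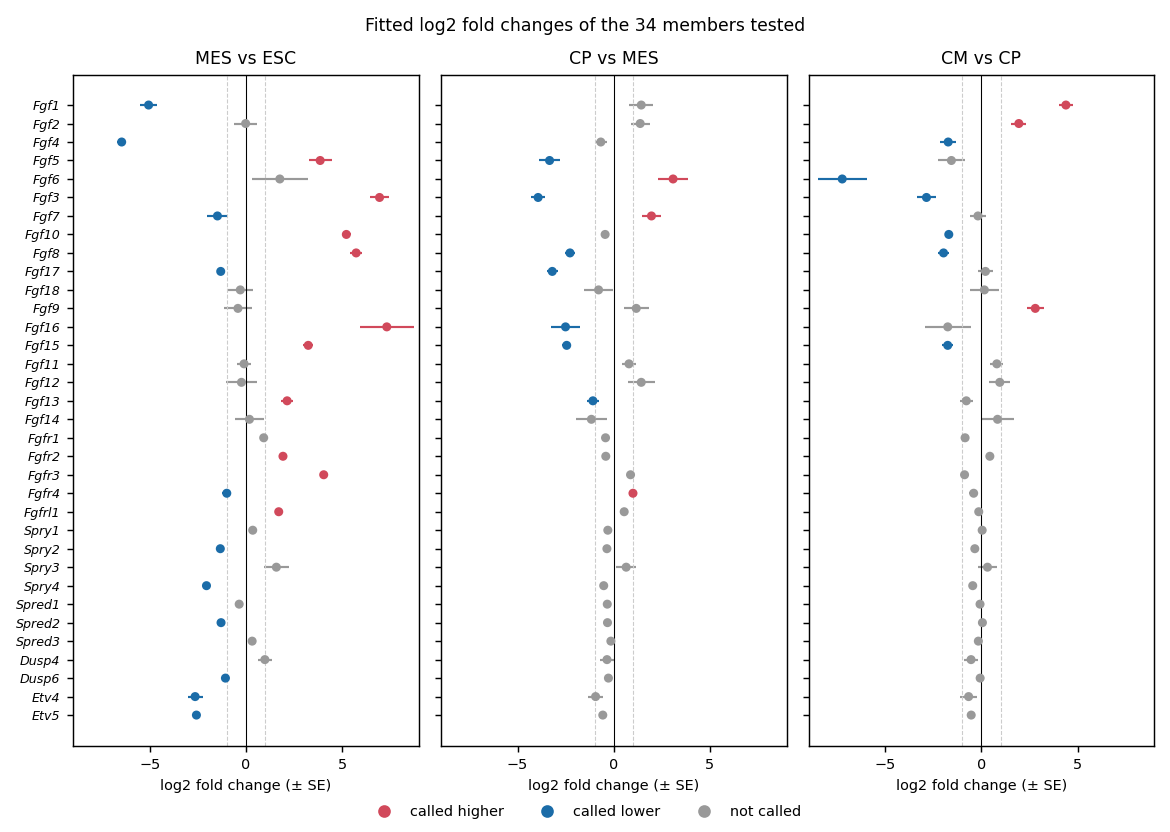
Fitted log2 fold changes with their standard errors for the 34 members tested, in the 3 consecutive comparisons (MES against ESC, CP against MES, CM against CP). From ESC to MES *Fgf3* is plotted at 6.95 and *Fgf4* at −6.47, and none of the feedback genes is called higher in any panel; *Fgf16* in the first and *Fgf6* in the last comparison have a stage with no count, so their plotted values depend on the prior count.

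Of the 38 genes, 31 reached a stage mean of at least 1 TPM at some stage: 24 in ESC, 26 at MES, 27 at CP and 29 at CM. The stage of the highest mean was ESC for 10 of the 31 and MES for another 10, and CP and CM for 5 and 6. Both libraries of that stage lay above all other libraries for 9, 8, 1 and 5 of these, so most CP peaks were not separated. For the secreted ligands the most frequent peak stage was MES (6 of 13 ligands that reached 1 TPM), and for the feedback genes it was ESC (7 of 11). Of the 34 members tested, 7 were never called, and the remaining 4 genes were too low to be tested.

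TPM and the fitted fold changes use different scales. The TPM scale lay above the scale of the count test by 0.21 (log2) from ESC to MES, by 0.16 and 0.07 in the next steps, and by 0.44 for CM against ESC. *Fgfr1* shows this: its TPM was similar in CM and ESC, while its fitted change was −0.36 (adjusted p = 0.00322).

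Among the ligands, *Fgf4* carried the ESC stage nearly alone. It was at 192 and 185 TPM in ESC, 1.97 and 2.93 at MES, 1.06 and 2.37 at CP, and 0.570 and 0.492 at CM. The ESC libraries stood far above the other 6, with no overlap. *Fgf4* was 88.8-fold lower in MES than in ESC (log2 fold change −6.47, SE 0.22, adjusted p = 3.13e-08 by edgeR) and 471-fold lower in CM (−8.88, SE 0.27, adjusted p = 1.17e-08). A further 3.32-fold fall from CP to CM (adjusted p = 0.0165) was lost without CP replicate 2 (2.13-fold, adjusted p = 0.137). *Fgf4* took 83.8% and 82.3% of the summed TPM of the 18 ligands in ESC, so that 1 gene made up most of the ligand RNA. The fall ran alongside that of the pluripotency markers, and the part of the loss of stem cells in it was not tested.

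The mouse *Fgf4* gene is known for an enhancer in its last exon, bound by Sox2 together with Oct4 in stem cells. It is shown here because *Fgf4* made up most of the ligand RNA in ESC. The exact letters of this known element, a Sox site and an Oct site 3 bases apart, were searched on both strands. The transcript searched has 3 exons and 3030 bases (Fgf4-201, GENCODE M21, GRCm38). The letters occurred at 1 place, chr7:144864394-144864411 on the plus strand, in the 3′ untranslated region of the last exon and 1453 bases after the coding sequence. Capitals mark the Sox and the Oct letters.
Fgf4 element: CTTTGTTtggATGCTAAT
In windows of the same length at the 3′ end of 12699 transcripts, these letters were found in 1, which is *Fgf4* (0.00787%). Since the letters were those of the *Fgf4* element, a match there was fixed in advance, and the share tests nothing. A match of letters is a description and was not tested for binding.

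*Fgf4* lies between 2 other ligand genes on chromosome 7, *Fgf3* and *Fgf15*, all on the plus strand. No annotated gene lies wholly within the gaps between them. *Gm26793* and *Gm39119* overlap *Fgf15* exons on the opposite strand, and whether they reach into the gap was not checked. In GENCODE M21, *Fgf3* spans chr7:144838083-144844436, *Fgf4* chr7:144847367-144865243 and *Fgf15* chr7:144896531-144900953. The gaps are 2.9 kb and 31.3 kb, and the RefSeq start of *Fgf4* lies 16.9 kb after the end of *Fgf3*. From ESC to MES, as *Fgf4* fell, *Fgf3* and *Fgf15* rose, while after MES both neighbours fell too.

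*Fgf3*, a ligand that acts in the inner ear and tail of the mouse embryo, was at 0.696 and 0.640 TPM in ESC, 109 and 84.7 at MES, 7.85 and 6.23 at CP, and 0.174 and 1.93 at CM. The MES libraries were above all others, and the CP libraries above both ends. It was 124-fold higher in MES than in ESC (log2 fold change 6.95, SE 0.48, adjusted p = 1.76e-06) and then 15.3-fold lower in CP (adjusted p = 6.3e-05). It was 7.28-fold lower again in CM (adjusted p = 0.0037), a value that ranged from 4.08-fold without CM replicate 1 to 37.7-fold without CM replicate 2. *Fgf15*, the mouse counterpart of human *FGF19* and a hormone-like FGF of the gut, was at 4.88 and 4.26 TPM in ESC, 57.4 and 42.4 at MES, 8.74 and 11.7 at CP, and 2.32 and 4.11 at CM. Again the MES libraries stood above the rest, and the CM libraries were the lowest. It was 9.45-fold higher in MES than in ESC (SE 0.26 on the log2 scale, adjusted p = 4.63e-06), 5.46-fold lower at CP than at MES (adjusted p = 9.1e-05) and 3.38-fold lower in CM than in CP (adjusted p = 0.00191). CM against ESC was not called (1.95-fold lower, adjusted p = 0.0124), although it passed both thresholds without CM replicate 2 or without ESC replicate 2.

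The promoters of these neighbours can be compared where a sequence was at hand (RefSeq, GRCm38.p6, 27 of the 38 members matched). The 250 bases before the RefSeq start site are shown for *Fgf3* (chr7:144838362-144838611) and *Fgf4* (chr7:144861136-144861385), both on the plus strand and 5′ to 3′. In GENCODE M21 both genes start earlier, *Fgf3* at chr7:144838083 and *Fgf4* at chr7:144847367. Both windows thus lie inside the gene models used here for coordinates and are promoters by RefSeq only. Both strands were searched for the Ets core (CGGAAG) and for 3 common promoter elements, and capitals mark the matches. The elements were the GC box with the letters GGGCGG, the CCAAT box by its name, and the TATA box with the letters TATAAA.
Fgf3: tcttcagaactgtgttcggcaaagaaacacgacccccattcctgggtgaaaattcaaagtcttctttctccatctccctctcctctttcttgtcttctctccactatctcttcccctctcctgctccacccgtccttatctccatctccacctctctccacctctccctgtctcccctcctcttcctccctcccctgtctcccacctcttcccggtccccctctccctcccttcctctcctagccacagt
Fgf4: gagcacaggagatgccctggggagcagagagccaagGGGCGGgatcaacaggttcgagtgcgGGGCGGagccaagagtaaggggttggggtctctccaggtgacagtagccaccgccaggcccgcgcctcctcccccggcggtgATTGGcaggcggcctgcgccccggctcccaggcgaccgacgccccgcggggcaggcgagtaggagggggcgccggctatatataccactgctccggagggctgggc
The *Fgf4* promoter was 71.2% G or C, and held 2 GC boxes, 214 and 188 bases before the start, and a CCAAT box on the minus strand 106 bases before it. The *Fgf3* promoter was 55.2% G or C, long runs of pyrimidines among them, with no match to any of the 4 motifs. Over all 32851 RefSeq promoters the median was 52.4%, and 32.7% held the GC box letters and 33.8% the CCAAT letters in the same window. Of the 27 members, 19 held a GC box (70.4%) and 11 a CCAAT box (40.7%). Members were counted by gene, with a match in any entry of the gene, but all promoters by entry.

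At MES a group of ligands replaced *Fgf4*. *Fgf8* was at 0.533 and 1.38 TPM in ESC, 59.6 and 59.1 at MES, 12.4 and 14.9 at CP, and 2.997 and 4.33 at CM. The stages did not overlap, and the level stepped up at MES and down at each later stage. The rise from ESC to MES was 53.2-fold (log2 fold change 5.73, SE 0.33, adjusted p = 5.77e-07), or 92.7-fold without ESC replicate 2. The falls were 4.85-fold from MES to CP (adjusted p = 0.000135) and 3.93-fold from CP to CM (adjusted p = 0.00138). CM remained 2.79-fold above ESC (adjusted p = 0.00803), a call that was lost without ESC replicate 1 (adjusted p = 0.0594) and was 4.93-fold without ESC replicate 2.

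*Fgf10*, a ligand of the *Fgfr2* IIIb form, was at 1.92 and 1.33 TPM in ESC, 71.0 and 70.2 at MES, 56.7 and 58.7 at CP, and 21.5 and 15.4 at CM. The MES and CP libraries were above those of both ends, and CP lay 1.36-fold below MES (adjusted p = 0.0787, not called). It was 37.3-fold higher in MES than in ESC (log2 fold change 5.22, SE 0.24, adjusted p = 1.52e-07) and 3.25-fold lower in CM than in CP (SE 0.19, adjusted p = 0.000376), with CM still 8.41-fold above ESC (adjusted p = 2.63e-06). *Fgf5*, a marker of the primed epiblast that follows the naive stem cell state, was at 1.51 and 2.68 TPM in ESC, 21.9 and 49.1 at MES, 6.19 and 1.47 at CP, and 1.46 and 1.26 at CM. The MES replicates differed more than for *Fgf8* or *Fgf10* but lay above all other libraries. The rise was 14.5-fold (log2 fold change 3.86, SE 0.60, adjusted p = 0.000406), or 9.27-fold without MES replicate 2. The fall to CP was 10.1-fold (adjusted p = 0.0017), between 6.22-fold without CP replicate 2 and 27.0-fold without CP replicate 1, and it was 6.43-fold without MES replicate 2.

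*Fgf16*, of the *Fgf9* subfamily, had no reads in ESC and a low level at MES. Its counts were 0 and 0 in ESC, 12 and 26 at MES, 5 and 2 at CP, and 0 and 2 at CM, that is 1.53 and 3.29 TPM in MES. Against a floor of 3 counts over both ESC libraries it was at least 12.5-fold higher in MES (adjusted p = 0.00197). The fall to CP (5.70-fold, adjusted p = 0.0287) was lost when any ESC, MES or CP library was left out (adjusted p 0.0551 to 0.229), with DESeq2 and with no filter on low counts. All these MES ligands rose with the primitive streak markers, and the part of the cell mixture was not tested.

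*Fgf17*, of the same subfamily as *Fgf8*, took the opposite start. It was at 20.6 and 20.5 TPM in ESC, 9.68 and 9.38 at MES, 1.13 and 1.15 at CP, and 1.08 and 1.73 at CM. The level fell in 2 steps and then stayed. It was 2.49-fold lower in MES than in ESC (SE 0.22 on the log2 scale, adjusted p = 0.000644), 9.19-fold lower at CP than at MES (adjusted p = 6.17e-05) and 19.8-fold lower in CM than in ESC (adjusted p = 5.64e-07).

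**Figure D2:**
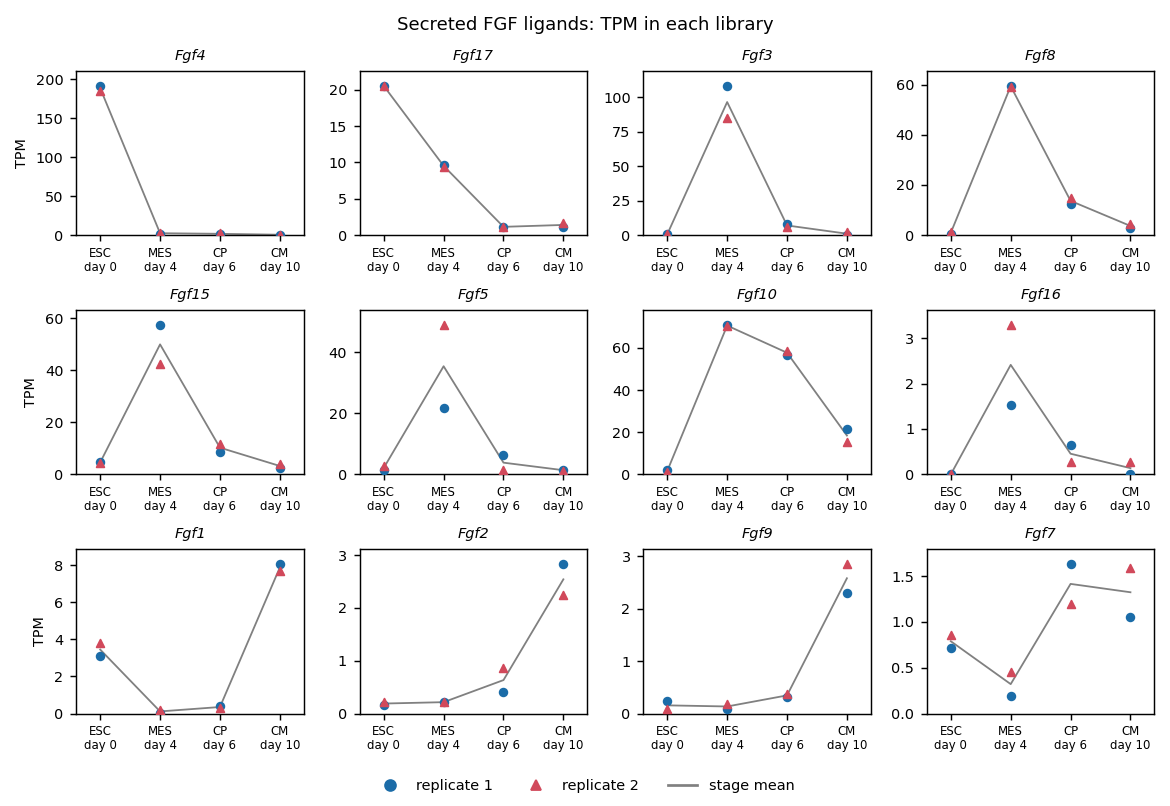
TPM of 12 secreted ligands in each of the 8 libraries, by stage; points are replicates 1 and 2 and lines join the stage means. *Fgf4* and *Fgf17* start high in ESC, *Fgf3*, *Fgf8*, *Fgf15*, *Fgf5* and *Fgf16* peak in MES, *Fgf10* is at 56.7 and 58.7 TPM in CP, and *Fgf1*, *Fgf2* and *Fgf9* are highest in CM, below 9 TPM.

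In CM 3 ligands came up, all at modest levels. *Fgf1*, which binds every FGF receptor, was at 3.10 and 3.81 TPM in ESC, 0.0384 and 0.191 at MES, 0.427 and 0.277 at CP, and 8.07 and 7.69 at CM. It was thus on at both ends and nearly off between them. The fall from ESC to MES was 33.6-fold (adjusted p = 1.08e-05), between 20.8-fold without MES replicate 1 and 91.1-fold without MES replicate 2, since the MES libraries held few reads. The rise from CP to CM was 21.0-fold (log2 fold change 4.39, SE 0.37, adjusted p = 0.000103). Its close relative *Fgf2* was at 0.159 and 0.219 TPM in ESC, 0.216 and 0.215 at MES, 0.407 and 0.861 at CP, and 2.83 and 2.25 at CM. The CM libraries were above the other 6. *Fgf2* was 3.85-fold higher in CM than in CP (adjusted p = 0.00584), 5.80-fold without CP replicate 2, and the call was lost without CP replicate 1 (adjusted p = 0.0585). Against ESC it was 9.86-fold higher (adjusted p = 9.93e-05). The *Fgf2* exons overlap those of the gene model *Gm43439* on the same strand, so part of its counts is uncertain.

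*Fgf9*, known in the mouse as a growth signal from the epicardium and endocardium to the heart muscle, was at 0.232 and 0.0800 TPM in ESC, 0.0901 and 0.179 at MES, 0.320 and 0.372 at CP, and 2.31 and 2.85 at CM. Again only the CM libraries passed 1 TPM. It was 6.97-fold higher in CM than in CP (log2 fold change 2.80, SE 0.44, adjusted p = 0.00194) and 11.7-fold higher than in ESC (adjusted p = 0.000111), or 22.9-fold without ESC replicate 1. *Fgf7*, a mesenchymal ligand for epithelial cells, was at 0.720 and 0.859 TPM in ESC, 0.194 and 0.449 at MES, 1.63 and 1.199 at CP, and 1.06 and 1.59 at CM. Its fall to MES (2.80-fold, adjusted p = 0.0366) and its rise to CP (3.898-fold, adjusted p = 0.0143) came from 3 to 25 counts per library. Both calls were lost without MES replicate 1 (adjusted p = 0.195 and 0.105). The fall was lost as well without either ESC or either CP replicate, the rise without CP replicate 1 (adjusted p = 0.0947), and the 2 folds were 4.46 and 6.23 without MES replicate 2. DESeq2 called neither (adjusted p = 0.166 and 0.0744), and the fall was lost as well with library totals and with no filter on low counts.

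The other ligands were low throughout. *Fgf6*, a ligand of developing skeletal muscle, had 39 counts over both CP libraries, 4 in MES, 1 in ESC and none in CM. Against the floor of 3 counts it was at least 13.7-fold lower in CM than in CP (adjusted p = 0.00432), while DESeq2 gave no adjusted p for it. The rise from MES to CP (8.502-fold, adjusted p = 0.0148) was lost without CP replicate 2, where it was 4.87-fold, without either MES replicate and with DESeq2 (adjusted p = 0.115). *Fgf18*, a ligand of the *Fgf8* subfamily that acts in bone and lung, was between 0.682 and 3.71 TPM in all libraries and was not called in any comparison. *Fgf20*, *Fgf22* and the hormone-like *Fgf21* and *Fgf23* had at most 11 counts in a library and were not tested.

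The make-up of the ligand RNA therefore differed at each stage. TPM divides by gene length, so the members' levels can be set beside each other within a library. The 18 ligands summed to 227 ± 2.82 TPM in ESC, 330.5 ± 8.97 at MES, 101 ± 2.00 at CP and 47.9 ± 2.12 at CM (mean ± SD, n = 2). After *Fgf4* in ESC came *Fgf17* with 8.99% and 9.11% of the sum. In MES the sum was spread over *Fgf3* (32.3% and 26.1%), *Fgf10* (21.1% and 21.7%), *Fgf8* (17.7% and 18.2%) and *Fgf15* (17.0% and 13.1%), with *Fgf5* at 6.49% and 15.1%. The order of *Fgf8* and *Fgf15* held in both MES libraries, and *Fgf10* lay below *Fgf3* in both. In CP *Fgf10* alone made up 56.8% and 57.1%, followed by *Fgf8* (12.4% and 14.5%) and *Fgf15* (8.75% and 11.4%). In CM *Fgf10* was still first (46.2% and 31.1%), with *Fgf1* next (17.4% and 15.6%). These shares are a description of RNA, not of protein.

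**Figure D3:**
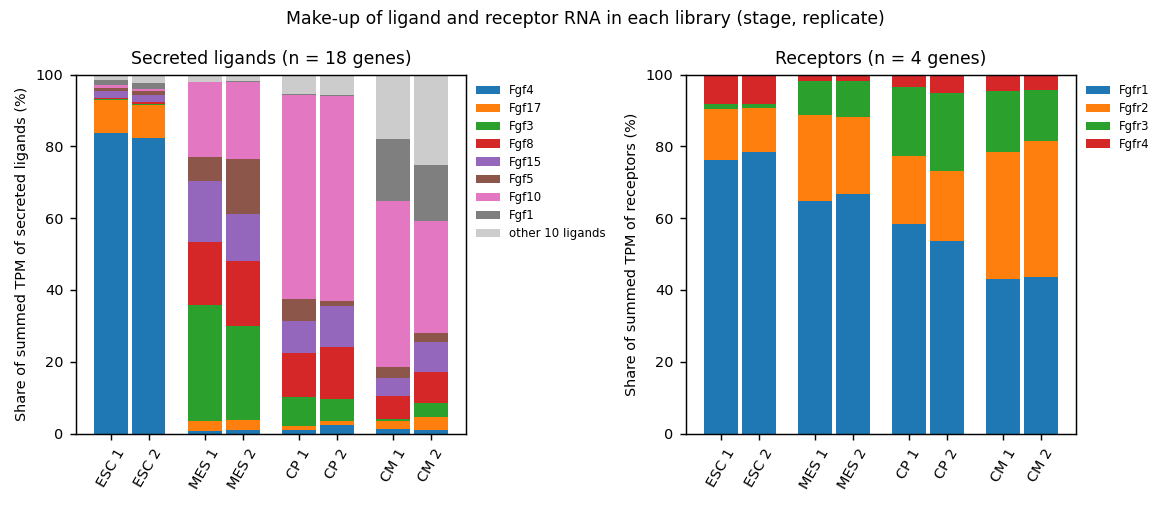
Share of the summed TPM of the 18 secreted ligands and of the 4 receptors taken by each gene, in percent, in each of the 8 libraries. *Fgf4* fills over 80% of the ligand sum in ESC and *Fgf10* over 55% in CP, while the *Fgfr1* share of the receptor sum falls from 77.3% in ESC to 43.3% in CM (stage means).

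The intracellular FGF homologous factors are not secreted and do not act through the receptors in the way of the ligands. They bind voltage-gated sodium channels in neurons and heart muscle. *Fgf11* was at 2.42 and 2.26 TPM in ESC, 1.65 and 3.42 at MES, 4.74 and 5.04 at CP, and 10.4 and 7.31 at CM, and CM was 2.81-fold above ESC (adjusted p = 0.00344). *Fgf13* was at 2.15 and 2.36 TPM in ESC, 11.3 and 11.8 at MES, 6.39 and 5.70 at CP, and 2.11 and 5.42 at CM. It was highest in both MES libraries, 4.41-fold above ESC (adjusted p = 0.000412), and its 2.12-fold fall to CP (adjusted p = 0.0218) was lost without any single MES or CP library (adjusted p 0.0752 to 0.132). *Fgf12* was 4.43-fold higher in CM than in ESC (adjusted p = 0.0115) at 0.587 and 0.688 TPM in CM, a call lost without either ESC replicate and with DESeq2. *Fgf14* stayed between 0.0967 and 1.02 TPM with no call.

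The receptors were present from the start, and their summed level was higher at every later stage. The 4 receptors summed to 82.5 ± 2.85 TPM in ESC, 212 ± 7.36 at MES, 207 ± 1.97 at CP and 156 ± 11.5 at CM (mean ± SD, n = 2). *Fgfr1*, the main receptor of stem cells and early mesoderm, was the highest at every stage but was never called. It was at 61.4 and 66.2 TPM in ESC, 135 and 145 at MES, 120.0 and 112 at CP, and 63.7 and 71.4 at CM. The MES and CP libraries were above those of both ends without overlap. Its fitted difference from ESC to MES was 1.89-fold (log2 0.92, SE 0.08, adjusted p = 1.19e-05), just inside the fold threshold, and it passed with scaling by library totals only (log2 1.01). The later differences were 1.34-fold and 1.81-fold towards lower levels (adjusted p = 0.00335 and 0.000212).

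*Fgfr2* was at 11.4 and 10.4 TPM in ESC, 49.3 and 46.6 at MES, 39.2 and 41.1 at CP, and 52.3 and 62.2 at CM. The ESC libraries were the lowest by a wide margin. *Fgfr2* was 3.80-fold higher in MES than in ESC (log2 fold change 1.92, SE 0.09, adjusted p = 2.11e-07) and 3.85-fold higher in CM (adjusted p = 1.05e-07). Its exons overlap those of *Ctbp2* on the same strand, and the gene model spans chr7:130162451-133123350, so its counts are uncertain to that extent. *Fgfr3* had the widest range of the receptors, with 1.16 and 1.01 TPM in ESC, 19.5 and 22.1 at MES, 39.7 and 45.4 at CP, and 25.1 and 23.2 at CM. The stages did not overlap. It was 16.5-fold higher in MES than in ESC (log2 fold change 4.04, SE 0.16, adjusted p = 6.93e-08) and 16.4-fold higher in CM than in ESC (adjusted p = 3.62e-08), while the CP maximum was within a factor of 2 of its neighbours (1.83-fold above MES, 1.84-fold above CM). The difference from CP to CM was called without CM replicate 1 (log2 −1.04).

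*Fgfr4*, which serves *Fgf15* signals in the liver, was at 6.55 and 6.93 TPM in ESC, 3.96 and 3.82 at MES, 7.01 and 10.4 at CP, and 6.57 and 7.23 at CM. The MES libraries were the lowest. The 2 calls, down 2.00-fold at MES (adjusted p = 0.00446) and up 2.00-fold at CP (adjusted p = 0.00812), lay at the fold threshold itself. The first fell under it without ESC replicate 2, without MES replicate 2 or without any CP or CM library (log2 −0.937 to −0.997), and also with library totals, with no filter and in the fit of the 2 stages alone. The second was lost without CP replicate 2 (log2 0.72, adjusted p = 0.0821) or MES replicate 2 (0.94, adjusted p = 0.0535). *Fgfrl1*, a receptor without the kinase that can trap ligands, was at 8.21 and 9.36 TPM in ESC, 32.1 and 34.2 at MES, 51.6 and 56.1 at CP, and 48.9 and 53.6 at CM. It was 3.26-fold higher in MES than in ESC (log2 fold change 1.70, SE 0.12, adjusted p = 2.24e-06) and 4.30-fold higher in CM (adjusted p = 2.82e-07).

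**Figure D4:**
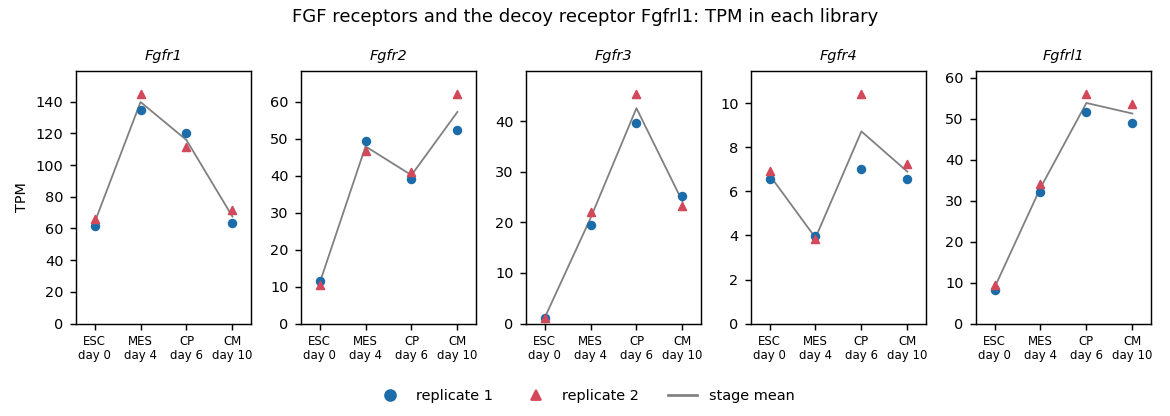
TPM of the 4 FGF receptors and of *Fgfrl1* in each of the 8 libraries, by stage; points are replicates 1 and 2 and lines join the stage means. *Fgfr1* is high in MES and CP, *Fgfr2*, *Fgfr3* and *Fgfrl1* are lowest in ESC, and *Fgfr4* is lowest in MES.

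Of the 5 receptor genes, 3 were called higher and 1 lower from ESC to MES, 1 higher from MES to CP, none from CP to CM and 3 higher in CM than in ESC. Of all genes tested, 19.4% were called higher and 16% lower in the first of these comparisons, 10.8% higher in the second and 29.8% higher in the last. From CP to CM, where 10.8% of all genes were called in either direction, 3 of the 5 had an unadjusted p under 0.05 with edgeR. DESeq2 called none. As a share of the receptor sum, *Fgfr1* went from 77.3% in ESC to 65.8%, 55.9% and 43.3% in MES, CP and CM (stage means). *Fgfr2* took 13.3%, 22.6%, 19.4% and 36.7%, and *Fgfr3* 1.32%, 9.79%, 20.5% and 15.6%. These are gene totals: the counts cannot tell apart the IIIb and IIIc forms of *Fgfr1* to *Fgfr3*, which bind different ligands.

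Among the feedback inhibitors and Ets factors, those called between ESC and MES were all lower. With edgeR none of the 11 was called higher and 6 were called lower from ESC to MES (16% of all genes were called lower), with a median log2 fold change of −1.07 beside 0.00 for all genes. At an unadjusted p under 0.05, 3 of the 11 were higher, and DESeq2 also called 0 higher and 6 lower. *Spry3* was called higher in this step with library totals only, in the fit of the 2 stages alone and without either CM replicate. After that none was called from MES to CP or from CP to CM, where 15.4% and 10.8% of all genes were called. In these 2 steps 7 and 3 of the 11 had an unadjusted p under 0.05 with edgeR, all of them lower, and DESeq2 called none. In CM 6 stood lower and 1 higher than in ESC (54.5% and 9.09%, beside 21.8% and 29.8% of all genes). The 6 lower genes were the same at both comparisons: *Etv4*, *Etv5*, *Spry4*, *Spry2*, *Spred2* and *Dusp6*.

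*Etv5* was the highest of the 11 in ESC, with 398 and 453 TPM. It was at 76.8 and 88.0 TPM at MES, 53.9 and 69.9 at CP, and 37.1 and 53.4 at CM. It was 5.98-fold lower in MES than in ESC (log2 fold change −2.58, SE 0.14, adjusted p = 4.81e-07) and 12.9-fold lower in CM (−3.69, SE 0.15, adjusted p = 4.21e-08). *Etv4* was at 150.2 and 154 TPM in ESC, 27.8 and 28.4 at MES, 13.7 and 18.9 at CP, and 4.04 and 18.2 at CM. It was 6.27-fold lower in MES (adjusted p = 0.000315) and 19.2-fold lower in CM than in ESC (−4.26, SE 0.43, adjusted p = 1.39e-05). The CM value ran from 12.1-fold without CM replicate 1 to 48.0-fold without CM replicate 2. Both Ets factors thus lost most of their RNA in the first step, and all 6 later libraries lay below both ESC libraries.

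The Sprouty proteins block the path from the receptor to Ras. *Spry4* was at 132 and 144 TPM in ESC, 37.5 and 39.2 at MES, 28.8 and 30.7 at CP, and 20.3 and 25.6 at CM. It was 4.16-fold lower in MES than in ESC (log2 fold change −2.06, SE 0.09, adjusted p = 1.11e-07) and 8.20-fold lower in CM (adjusted p = 1.21e-08). *Spry2* was at 205 and 209 TPM in ESC, 92.4 and 97.2 at MES, 77.6 and 87.7 at CP, and 53.8 and 84.2 at CM. It was 2.53-fold lower in MES than in ESC (−1.34, SE 0.14, adjusted p = 2.45e-05) and 4.11-fold lower in CM (adjusted p = 8.58e-07). In contrast, *Spry1* was at 22.6 to 37.5 TPM in all libraries and was not called. *Spry3*, annotated on the scaffold GL456233.1, was at 0.248 and 0.299 TPM in ESC, 0.675 and 1.25 at MES, 1.66 and 1.69 at CP, and 3.12 and 1.14 at CM. It was the 1 feedback gene higher in CM than in ESC (5.81-fold, adjusted p = 0.00409), between 2.84-fold without CM replicate 1 and 8.79-fold without CM replicate 2. The family therefore split, with *Spry2* and *Spry4* lower and *Spry3* higher.

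Of the Spred proteins, which act on Ras and Raf, only *Spred2* was called. It was at 132 and 133 TPM in ESC, 59.97 and 64.6 at MES, 56.0 and 54.7 at CP, and 58.4 and 62.0 at CM, that is 2.46-fold lower in MES than in ESC (log2 fold change −1.30, SE 0.08, adjusted p = 9.29e-07) and 2.98-fold lower in CM (adjusted p = 1.46e-07). *Spred1* was not called, although both ESC libraries (132 and 135 TPM) lay above all others (86.7 to 128 TPM). It was 1.70-fold lower in CM than in ESC (adjusted p = 0.000345), inside the fold threshold. *Spred3* was at 7.98 to 13.9 TPM in all libraries, with no call. *Dusp6*, the cytoplasmic phosphatase of ERK, was at 167 and 177 TPM in ESC, 96.5 and 92.8 at MES, 80.9 and 93.7 at CP, and 66.7 and 110.3 at CM. It was 2.10-fold lower in MES than in ESC (−1.07, SE 0.15, adjusted p = 0.000257), a call near the fold threshold that was not reached with scaling by library totals only (log2 −0.99), and 2.67-fold lower in CM (adjusted p = 2.36e-05).

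*Dusp4*, the nuclear phosphatase, did not follow *Dusp6*. It was at 93.4 and 94.2 TPM in ESC, 208 and 221 at MES, 167 and 208 at CP, and 65.8 and 213 at CM. The MES and CP libraries were above those of ESC, while the CM libraries lay 1 below and 1 above both ESC libraries. The difference from ESC to MES was 1.98-fold (log2 0.98, SE 0.36, adjusted p = 0.038), just short of a call. It passed with scaling by library totals only (log2 1.07) and with no filter on low counts (1.01). The adjusted p was 0.129 with DESeq2 and, with edgeR, 0.0513 with RLE scaling and 0.0187 with the replicate block. In the edgeR fit of the 2 stages alone it was 1.14e-07 (log2 0.995). Without any single library the log2 fold change was 0.975 to 1.002.

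**Figure D5:**
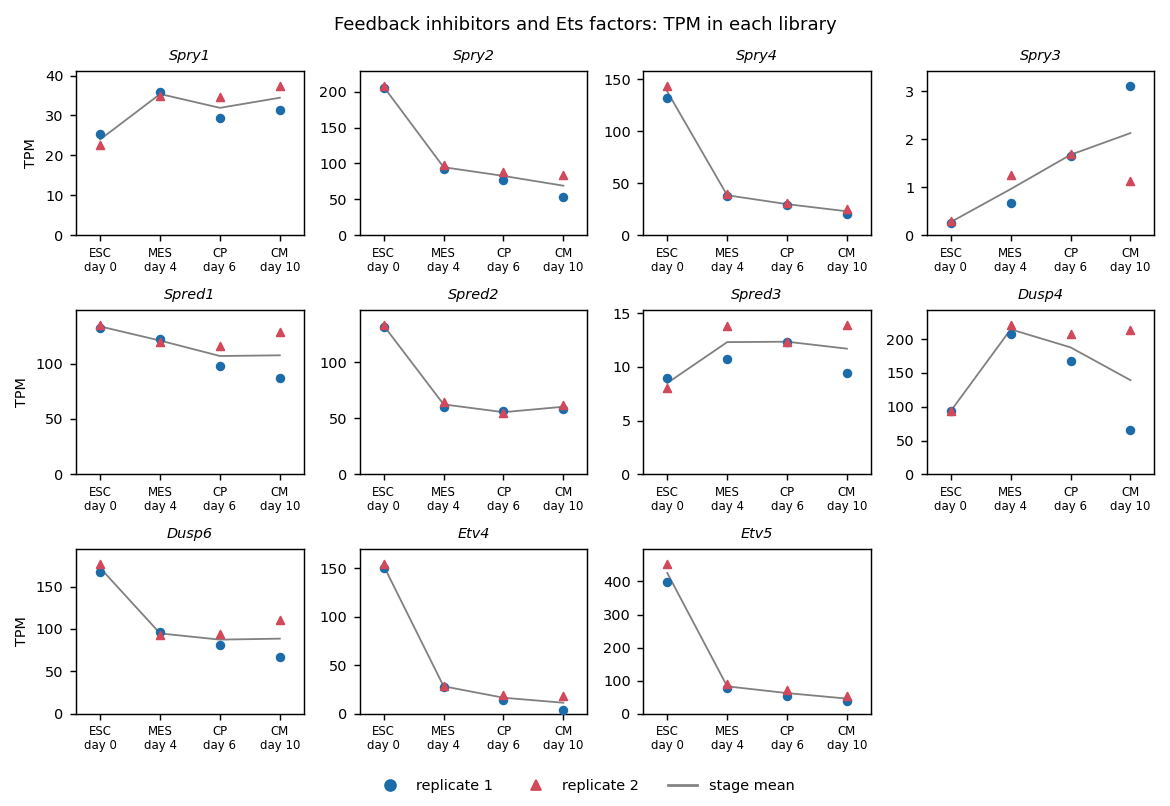
TPM of the 11 feedback inhibitors and Ets factors in each of the 8 libraries, by stage; points are replicates 1 and 2 and lines join the stage means. *Etv4*, *Etv5*, *Spry2*, *Spry4*, *Spred1*, *Spred2* and *Dusp6* are highest in both ESC libraries, *Dusp4* has its highest mean in MES, and the CM replicates of *Dusp4* and *Etv4* lie far apart.

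The CM replicates did not agree for all of these genes. Replicate 2 was above replicate 1 for 10 of the 11 (90.9%), with a median ratio of 1.47, against 63.5% and a median ratio of 1.098 over the 20152 genes at 1 TPM or more in CM. *Etv4* was 4.51-fold and *Dusp4* 3.24-fold higher in replicate 2, while *Spry3* was lower (ratio 0.365). *Spred2* and *Spry1* were closest to each other in the 2 libraries (ratios 1.06 and 1.19). Without CM replicate 2, *Dusp4* and *Etv4* were called lower from CP to CM (log2 −1.50 and −2.00), so that the count of 0 in that step became 2. The count of 6 lower and 1 higher in CM against ESC stayed at 6 and 1 when any of the 8 libraries was left out. The cardiac markers differed in the same direction (561 and 1147 TPM), as did those of endoderm (589 and 934), and the smooth muscle and fibroblast markers in the other (12647 and 8685). Their part in the replicate difference was not tested.

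Promoters are shown for 2 of the 6 genes that fell together, as those with an Ets core in the window (27 members matched, among them *Spry2*, *Etv5*, *Dusp6* and *Spred2* of the 6). *Dusp6* is at chr10:99262981-99263230 and *Spred2* at chr11:19924192-19924441, both on the plus strand of GRCm38.p6. In GENCODE M21 *Spred2* starts within its window, at chr11:19924375, and *Dusp6* right after its own. Capitals mark the Ets core (CGGAAG, here as its reverse complement), a GC box and a CCAAT box.
Dusp6: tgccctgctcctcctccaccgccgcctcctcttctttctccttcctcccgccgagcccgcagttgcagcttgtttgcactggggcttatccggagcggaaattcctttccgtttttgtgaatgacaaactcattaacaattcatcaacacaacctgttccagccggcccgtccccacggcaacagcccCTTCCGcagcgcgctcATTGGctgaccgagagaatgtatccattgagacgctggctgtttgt
Spred2: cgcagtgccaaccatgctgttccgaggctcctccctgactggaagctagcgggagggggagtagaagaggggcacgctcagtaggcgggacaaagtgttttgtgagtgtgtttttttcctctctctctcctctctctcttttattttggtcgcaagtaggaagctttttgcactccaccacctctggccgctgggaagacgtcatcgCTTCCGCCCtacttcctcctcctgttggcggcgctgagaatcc
In *Dusp6* the Ets core lay 62 and the CCAAT box 46 bases before the start site, both on the minus strand. In *Spred2* the Ets core lay 43 bases before the start, overlapping a GC box at 40, also on the minus strand. The Ets letters occurred in 6 of 27 members, counted by gene (22.2%: *Dusp6*, *Fgf12*, *Fgf23*, *Fgfrl1*, *Spred1* and *Spred2*). Of all promoters, counted by entry, 13.6% held them. Of the 6 holders, 4 are genes that were not called lower in MES than in ESC.

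The genes that work around the ligands and receptors were counted from 4 lists. Coreceptors and other membrane partners, such as syndecans, Flrt proteins and the Klothos, were called higher more often than lower in each comparison, as were all genes. Of 19 genes, 10 were called higher and 2 lower from ESC to MES, 5 and 1 from MES to CP, 3 and 0 from CP to CM, and 15 and 1 in CM against ESC. From ESC to MES that is 52.6% higher and 10.5% lower, beside 19.4% and 16% of all genes. It is 26.3% and 5.26% from MES to CP (all genes 10.8% and 4.65%), 15.8% higher from CP to CM (all genes 8.17%), and 78.9% and 5.26% in CM against ESC (all genes 29.8% and 21.8%). Their median log2 fold change was 1.103, 0.24, 0.31 and 1.78 in these comparisons, beside 0.00, 0.00, −0.0037 and 0.11 for all genes. From CP to CM 6 were lower at an unadjusted p under 0.05, and DESeq2 called 0 lower. *Sdc3*, a cell-surface heparan sulfate carrier, was at 1.44 and 1.80 TPM in ESC and 24.0 and 24.9 in MES (13.0-fold higher, adjusted p = 1.17e-07). *Flrt3*, which binds FGF receptors in the frog embryo, was at 4.62 and 4.82 TPM in ESC and 60.3 and 59.1 in MES (10.9-fold higher, adjusted p = 1.9e-07). Both rose with the receptors *Fgfr2* and *Fgfr3*.

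*Klb*, the coreceptor of *Fgf15* and *Fgf21*, was low in MES and then rose. It was at 0.870 and 0.940 TPM in ESC, 0.276 and 0.458 at MES, 5.32 and 5.66 at CP, and 5.83 and 6.32 at CM. It was 2.83-fold lower in MES than in ESC (adjusted p = 0.0044) and 13.2-fold higher in CP than in MES (log2 fold change 3.73, SE 0.30, adjusted p = 3.47e-05). The rise came in the step in which *Fgfr4* went from 3.96 and 3.82 to 7.01 and 10.4 TPM and *Fgf15* fell. The endoderm markers summed to 81.7 and 123 TPM in MES and 332 and 547 in CP, and their part in it was not tested.

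Heparan sulfate genes build the sugar chains that hold FGFs on their receptors. Of the 21 tested of 22, 7 were called higher and 2 lower from ESC to MES, 5 and 1 from MES to CP, and 12 and 0 in CM against ESC. The higher share was 33.3%, 23.8% and 57.1% in these comparisons, beside 19.4%, 10.8% and 29.8% of all genes, and the lower share 9.52%, 4.76% and 0%, beside 16%, 4.65% and 21.8%. None was called from CP to CM with edgeR or DESeq2, while 10 had an unadjusted p under 0.05 with edgeR. Of all genes, 10.8% were called in this step in either direction. In CM against ESC 2 of the 21 were lower at an unadjusted p under 0.05, and DESeq2 called 0 lower. The median log2 fold change in the 4 comparisons was 0.44, 0.31, 0.01 and 1.22, beside 0.00, 0.00, −0.0037 and 0.11 for all genes. The 6-O-sulfotransferase *Hs6st2* was at 6.04 and 5.88 TPM in ESC and 66.5 and 57.6 in MES (9.004-fold higher, adjusted p = 1.25e-07), while its paralogue *Hs6st1* went from 45.1 and 54.2 to 17.3 and 22.8 (2.87-fold lower, adjusted p = 7.62e-06). The 2 enzymes of the same reaction thus changed in opposite directions from ESC to MES. In CM *Hs6st1* was at 62.2 and 69.9 TPM and *Hs6st2* at 34.6 and 49.2.

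The cascade inside the cell had the fewest calls of the 4 lists. Of 23 adaptor and Ras-ERK genes, 4 were called higher and 1 lower from ESC to MES, and 2 and 3 in CM against ESC. In the first comparison the called share was 21.7% beside 35.4% of all genes, with the higher calls (17.4%) near the 19.4% of all genes, and in the last 21.7% beside 51.6%. None was called in the steps between, beside 15.4% and 10.8% of all genes. There 11 and 7 had an unadjusted p under 0.05 with edgeR, and DESeq2 called none. *Gab1*, a docking protein, was at 262 and 279 TPM in ESC and 48.7 and 62.9 in MES (5.62-fold lower, adjusted p = 1.52e-07). *Frs2*, which links FGF receptors to Ras, was at 28.2 and 31.1 TPM in ESC and 66.9 and 71.7 in MES (2.02-fold higher, adjusted p = 5.52e-05), and *Ptpn11*, the phosphatase Shp2, was 2.13-fold higher (adjusted p = 6.45e-06). Docking proteins of the same pathway therefore differed in direction.

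Of 18 other genes that respond to ERK, 3 were called higher and 5 lower from ESC to MES, 1 and 3 from MES to CP, 4 and 1 from CP to CM, and 4 and 6 in CM against ESC. The called share was 44.4%, 22.2%, 27.8% and 55.6%, beside 35.4%, 15.4%, 10.8% and 51.6% of all genes, so that it was near the background in CM against ESC. *Egr1*, an immediate early transcription factor, was at 55.2 and 58.4 TPM in ESC, 7.71 and 9.34 at MES, 8.80 and 10.6 at CP, and 41.7 and 53.9 at CM. It was 7.71-fold lower in MES than in ESC (adjusted p = 1.26e-07) and 4.66-fold higher in CM than in CP (adjusted p = 1.5e-05). *Dusp2*, another nuclear phosphatase, had a different course, at 0.719 and 1.11 TPM in ESC, 14.6 and 12.6 at MES, 11.9 and 14.4 at CP, and 3.03 and 4.93 at CM (12.8-fold higher in MES than in ESC, adjusted p = 1.15e-05). *Etv1*, of the same Ets subfamily as *Etv4* and *Etv5*, was at 23.0 and 25.4 TPM in ESC, 4.87 and 6.22 at MES, 5.17 and 4.26 at CP, and 2.92 and 4.54 at CM (8.87-fold lower in CM than in ESC, adjusted p = 2.93e-07). Like its relatives it was highest in both ESC libraries.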

How the data were processed

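RNA of J1 mouse ESCs and of MES, CP and CM cultures, 2 biological replicates each, was sequenced strand-specifically after removal of ribosomal RNA. The authors trimmed reads with Trim Galore 0.6.6, aligned them to GRCm38 with HISAT2 2.2.1, counted them per gene with featureCounts 2.0.1 and used DESeq2 1.34.0 for their comparisons, per the submitters' processing notes and methods. The authors deposited raw counts per gene (whole numbers) and TPM, in which a count is divided by gene length and each library is brought to the same sum. TPM recomputed from the counts lay within 4.35e-06 of the deposited values.

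Genes were tested on raw counts with edgeR 4.0.16 (R 4.3.3; quasi-likelihood F-test, TMM, filterByExpr), in 1 model of all 8 libraries with a term per stage. The Benjamini-Hochberg adjustment ran over 20071 genes. The common dispersion was 0.0163. The SE was taken from the test, as the absolute log2 fold change over the root of F. Where a stage held no read of a gene, 3 counts over its libraries served as the floor, and the fold is a bound for counting error only. Since the spread is shared by all stages, tests against CM may give p-values that are too small. Members called and at 1 TPM or more in a stage are given for every library, the others by range. From each other list, no more than the 2 called genes of lowest adjusted p per direction and comparison were eligible to be named. The members and lists were chosen with earlier results of these data known. Coordinates are of GENCODE M21 (GRCm38), whose exon lengths equal those of the files for all 38 members, and promoters are of RefSeq (GRCm38.p6), which held none for 11 members as matched here. Replicate numbers share no stated batch, so the fit is unpaired. Alternatives were DESeq2 1.42.0, other scalings, no filter, a replicate block, 2-stage fits and leaving out each library.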

Additional observations from a re-analysis of the deposited data

How the results depend on the processing

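With 2 libraries per stage, folds near 2 and genes with few counts are the least certain, and the CM libraries differ most. With no fold threshold the members called rose from 10 to 17 for CP against MES and from 9 to 14 for CM against CP. Leaving out each library in turn, the count ran from 19 to 21 for MES against ESC, from 6 to 11 for CP against MES, from 8 to 13 for CM against CP and from 16 to 21 for CM against ESC. The same-numbered replicates did not deviate together at every stage (correlations −9.42e-05 to 0.106), so the numbers were not taken as pairs. With the replicate block the counts were 19, 9, 9 and 18, and both *Fgfr4* calls (log2 −0.999 and 0.991) and the *Fgf7* fall (adjusted p = 0.0519) were outside the thresholds. With DESeq2 they were 20, 7, 9 and 17. The 78 fold changes of members with an adjusted p below 0.05 by edgeR, called or not, were followed over 14 alternatives. Of the results, 1035 kept their status (called or not called), 50 lost a call, 6 gained one and none changed sign. DESeq2 gave no adjusted p for 1 of them, *Fgf6* in CM against CP. Over all members tested, 26 calls were gained, 9 of them without CM replicate 2. Fits of the 2 stages alone lost the CM against CP calls of *Fgf3* (adjusted p = 0.0526) and *Fgf4* (adjusted p = 0.0892). Library totals moved the median of all genes for CM against ESC from 0.11 to 0.33 (log2).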
